A study of Mus musculus with 6 samples.

Results

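The NRF2 pathway and antioxidant genes described here are 10 of the 16095 genes in the table: Nfe2l2, Keap1, Nqo1, Srxn1, Pgd, Prdx1, Txnrd1, Gclc, Gclm and Hmox1. They were chosen by symbol, as the gene for NRF2, the gene for its inhibitor and a set of their antioxidant, glutathione and NADPH target genes. All 10 were found, and all 10 reached the mean of 10 normalized counts required for testing; Hmox1 did so only through its control libraries. RNA was sequenced from mouse kidney epithelial cells in 6 libraries. The 3 Terf1_flox libraries came from Trf1lox/lox KFP+/t Cre+/t mice, in which both copies of Terf1, the gene for the telomere protein TRF1, are flanked by loxP sites. The 3 control libraries came from Trf1+/+ KFP+/t Cre+/t mice. Mice of both groups thus carried the KspCadherin-CreERT2 recombinase, which the Ksp-cadherin promoter limits to tubule epithelium, and the KFP reporter. Mice of both groups also received tamoxifen 3 times a week for 8 weeks, starting at 6 to 8 weeks of age, in males and females. Cells were sorted by an EpCAM antibody and the reporter signal. The sources used here do not give the sex of the mice behind each library or any pooling of mice, and p-values measure only the spread between these libraries, which may be technical.

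NRF2, encoded by Nfe2l2, is a transcription factor that KEAP1 captures and passes to a ubiquitin ligase for breakdown in resting cells. When oxidants or electrophiles modify cysteines of KEAP1, NRF2 escapes, enters the nucleus and, paired with a small MAF protein, binds antioxidant response elements near genes of glutathione synthesis, thioredoxin and peroxiredoxin cycling, NADPH supply and haem breakdown. In the kidney the pathway is known for protecting tubule cells against oxidative injury. NRF2 is controlled mostly through protein stability, so its mRNA level is a poor guide to its activity.

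The antioxidant response element was searched in the RefSeq promoters of the members, since its core is the sequence that the pathway reads. A promoter here is the stretch of 250 bases before to 50 bases after an annotated start, on build GRCm38.p6, while the submitters' processing notes name GRCm39 for the expression data. Of the 10 members, all but Gclc and Hmox1, that is 8, matched by symbol, with 11 windows among them. The core TGACNNNGC, on either strand, lay in at least 1 window of Nfe2l2, Srxn1, Pgd, Prdx1, Txnrd1 and Gclm. It lay in 6 of the 11 windows of members, and in 12.4% of all 32851 windows of the same length. The variant TGAGNNNGC lay in the windows of Srxn1 and Prdx1, and in 17.6% of all windows. Prdx1, a peroxiredoxin gene, and Srxn1, the gene of an enzyme that repairs peroxiredoxins, were on opposite sides of the comparison below with no overlap between groups, and are shown by the 250 bases before their starts, 5′ to 3′ on the gene's strand, with matches to either core in capitals.
Prdx1 (chr4:116685349-116685598, plus strand): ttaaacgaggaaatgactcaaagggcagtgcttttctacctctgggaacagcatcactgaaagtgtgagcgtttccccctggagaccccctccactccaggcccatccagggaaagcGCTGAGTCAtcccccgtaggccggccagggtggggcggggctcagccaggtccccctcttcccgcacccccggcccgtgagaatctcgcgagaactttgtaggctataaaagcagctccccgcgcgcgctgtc
Srxn1 (chr2:152105274-152105523, plus strand): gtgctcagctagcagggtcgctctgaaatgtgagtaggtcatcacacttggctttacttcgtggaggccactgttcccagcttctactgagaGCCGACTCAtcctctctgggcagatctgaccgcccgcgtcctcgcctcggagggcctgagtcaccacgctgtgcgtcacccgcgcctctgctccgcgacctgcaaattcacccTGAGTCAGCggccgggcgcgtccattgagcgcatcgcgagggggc
In Prdx1 the capitals are the complement strand's TGACTCAGC, at bases -133 to -125 from the start, a form found in 0.454% of all windows. An exact form is rarer than the core it belongs to, and such shares were not computed for the other exact forms shown. In Srxn1 the capitals are the complement strand's TGAGTCGGC at -158 to -150 and the gene strand's TGAGTCAGC at -45 to -37. TGACTCAGC and TGAGTCAGC also hold TGANTCA, the motif of AP-1 factors, which lies in 7.81% of all windows. The windows of Prdx1 and Srxn1 each held 1 further match after the start, not printed. The matches of the regulator Nfe2l2, the glutathione enzyme gene Gclm and the reductase gene Txnrd1 are shown with their flanks for comparison.
Nfe2l2 (chr2:75704879-75704913, minus strand): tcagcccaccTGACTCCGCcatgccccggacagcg
Gclm (chr3:122245407-122245447, plus strand): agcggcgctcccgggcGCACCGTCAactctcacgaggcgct
Txnrd1 (chr10:82859098-82859138, plus strand): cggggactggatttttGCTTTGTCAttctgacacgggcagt
The Txnrd1 match precedes the second of its 3 annotated starts. The Pgd match lies 4 to 12 bases after the second of its 2 starts and is not printed. A match describes letters in a window and does not show that NRF2 binds there.

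The 3 Terf1_flox libraries held 13870931 to 15375471 reads and the 3 control libraries 13582140 to 17680986. Values are normalized counts, reads divided by a size factor per library, in which 1 read is worth 0.789 to 1.09. Terf1 was at 62.0, 24.6 and 25.3 in Terf1_flox libraries, against 529.6, 486.1 and 663.9 in control libraries, so the targeted gene was low in the group labelled for it. Tubule genes were abundant: the 8 thick ascending limb markers summed to between 197893 and 211825 in Terf1_flox and between 238366 and 289395 in control libraries. Of 10 endothelial, 10 fibroblast and pericyte, and 10 T and NK lymphocyte markers, 1, 2 and 1 had a row in the table. Of 16 macrophage and monocyte markers, 9 had a row. The rule by which genes were given a row is not known. The lymphocyte marker, Trac, was at 688 in Terf1_flox replicate 3, at 93.5 and 0 in the other Terf1_flox libraries and at 174 to 213 in control libraries. Epcam, the gene of the antigen used for sorting, was at 1831, 1434 and 2977 in Terf1_flox libraries, against 4510, 5087 and 4416 in control libraries. It was 2.35-fold lower with no overlap (limma adjusted p = 0.139, DESeq2 adjusted p = 0.00748). Its log2 fold change was -1.23, and -0.56 (limma unadjusted p = 0.0597) after the correction for GC content and length described below. The part of this shift in the results that follow was not tested. Terf1_flox replicate 3 stood apart from the rest by its proximal tubule genes, whose 14 measured markers summed to 16332 there, against 5545 and 6404 in the other Terf1_flox libraries and 3403 to 4994 in control libraries. Its distal convoluted tubule markers summed to 100595, against 166844 and 172884 in the other Terf1_flox libraries. Control replicate 3 was low in these too, at 96184 against 169240 and 169919. The intercalated cell sum was also lowest in Terf1_flox replicate 3, at 7131, against 10459 and 14252 in the other Terf1_flox libraries and 10518 to 25153 in control libraries. Mitochondrially encoded genes took 14.3% to 18.7% of normalized counts in Terf1_flox libraries and 9.3% to 11.7% in control libraries. In bulk RNA, fewer cells of a type and less RNA per cell cannot be told apart.

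Among the 10 members, Prdx1 was higher and Srxn1 and Pgd were lower in every Terf1_flox library than in any control library, while the sensor and regulator genes and the glutathione synthesis genes overlapped between the groups. None of the 10 was called by limma at an adjusted p below 0.05 over all 14822 genes tested, where 0 genes (0%) were called in all. At an unadjusted p below 0.05, limma found 1 member higher, against 5.7% of all genes, and 2 members lower, against 8.43% of all genes. edgeR called 0 members and 0 genes (0%), with 4 members and 13.4% of all genes at an unadjusted p below 0.05. Hmox1 was among these 4, and it was tested only through its control libraries, so a low value was favoured in advance. DESeq2 called 3 members, against 5.21% of all genes; 1 was higher, against 2.21%, and 2 were lower, against 3%. The groups did not overlap for 3 members, and for 21.1% of all genes tested. The median log2 fold change of the members was -0.42, with 8 of 10 below 0, beside -0.08 over all genes. Without Terf1_flox replicate 3 that median was -0.04. The SD of log2 values within a group had a median over members of 0.56 in Terf1_flox and 0.33 in control libraries, beside 0.80 in Terf1_flox and 0.68 in control libraries over all genes tested.

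**Figure D1:**
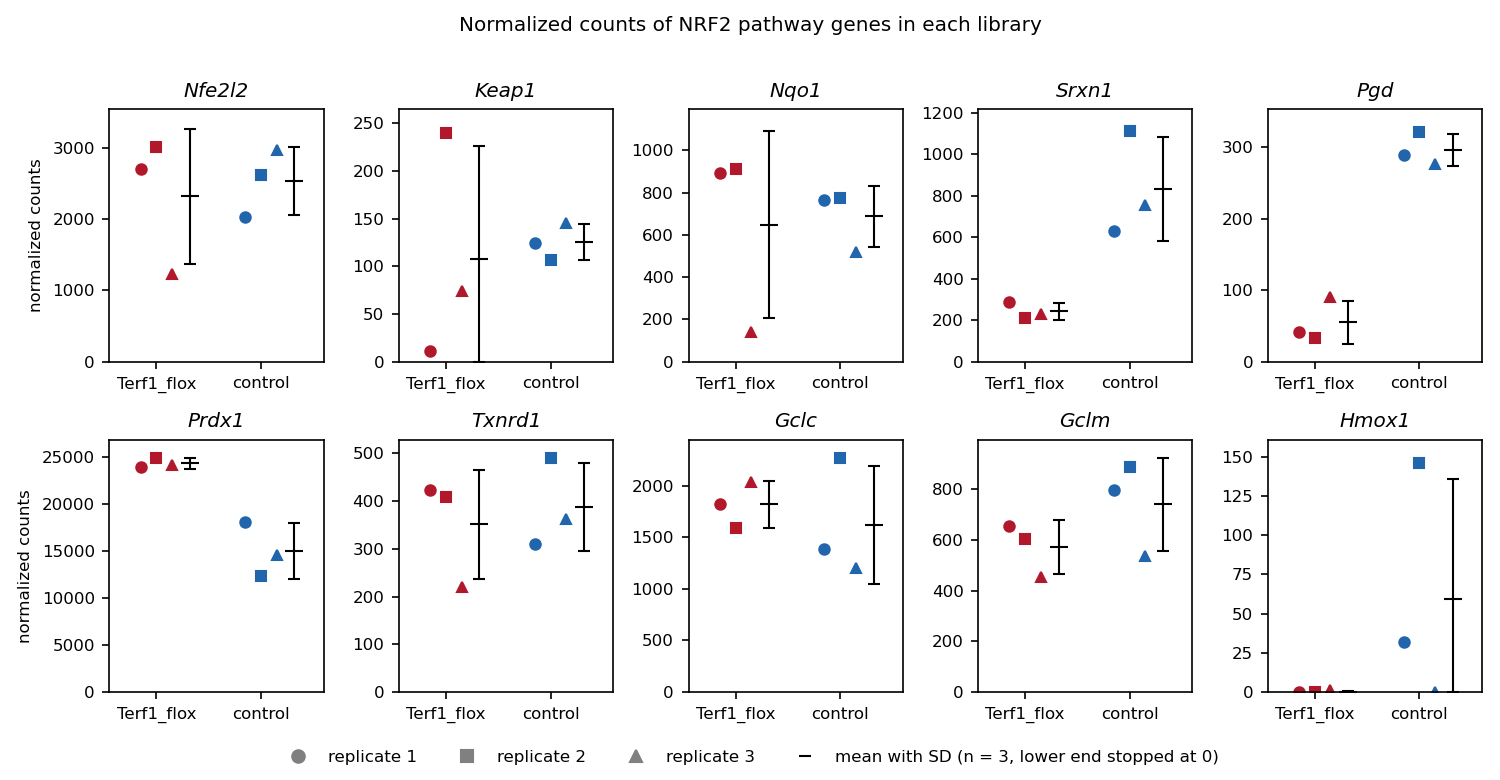
Normalized counts (y axis, linear, from 0) of each of the 10 genes in the 3 Terf1_flox and 3 control libraries, with marker shapes for the replicates and a black bar for the mean with SD (n = 3, lower end stopped at 0). The groups separate for Srxn1, Pgd and Prdx1 and overlap for the other genes; Terf1_flox replicate 3 is the lowest library for Nfe2l2 (1236) and Nqo1 (139.7).

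The regulator genes come first. Nfe2l2 was at 2704, 3015 and 1236 normalized counts in Terf1_flox libraries, against 2026, 2617 and 2968 in control libraries. Terf1_flox replicate 3 was the lowest of the 6 and the other Terf1_flox libraries lay within or just above the control range. The log2 fold change of Nfe2l2 was -0.21 ± 0.36 (SE; 95% interval -1.04 to 0.61; limma adjusted p = 0.836), and 0.19 without Terf1_flox replicate 3.

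Keap1 was at 10.9, 240.1 and 73.9 in Terf1_flox libraries, against 124.9, 106.8 and 145.2 in control libraries. The Terf1_flox libraries thus held both the highest and the lowest value, from 10 and 234 whole reads, while the control libraries lay close together. The SD of its log2 values was 2.19 in Terf1_flox libraries, where the median gene tested had 0.80. The fitted log2 fold change of -1.07 ± 1.07 (limma adjusted p = 0.703) was 0.10 without Terf1_flox replicate 1 and -2.08 without Terf1_flox replicate 2. Keap1 shares 510 exon bases with the antisense gene Gm16754 in GENCODE, which was at 60.9, 89.3 and 24.3 in Terf1_flox and 9.7, 21.9 and 9.5 in control libraries; the sources used here do not say whether counting used strand, so reads of the overlap cannot be assigned with certainty. Both genes were highest in Terf1_flox replicate 2, and the order of the other Terf1_flox libraries differed between them. The part of the overlap in the Keap1 values was not tested.

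The peroxiredoxin arm held the members with opposite shifts. Prdx1, whose product reduces hydrogen peroxide with electrons from thioredoxin, was the most abundant member. It was at 23908, 24932 and 24136 normalized counts in Terf1_flox libraries, against 18142, 12305 and 14589 in control libraries. The Terf1_flox libraries differed among themselves by a coefficient of variation of 2.21%, and the control libraries by 19.6%. Prdx1 was 1.64-fold higher, with a log2 fold change of 0.71 ± 0.17 (limma unadjusted p = 0.00239, adjusted p = 0.139; edgeR adjusted p = 0.181; DESeq2 adjusted p = 0.0252). An exact two-sided permutation test gave p = 0.1, the smallest that 3 against 3 libraries can give.

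Srxn1 encodes sulfiredoxin, the enzyme that repairs peroxiredoxins whose active cysteine has been overoxidized. It was at 287.2, 211.4 and 229.7 in Terf1_flox libraries, against 630.7, 1113 and 757.8 in control libraries. Every Terf1_flox library lay below every control library. Srxn1 was 3.36-fold lower, with a log2 fold change of -1.75 ± 0.39 (limma unadjusted p = 0.0018, adjusted p = 0.13; edgeR adjusted p = 0.153; DESeq2 adjusted p = 0.00261; exact permutation p = 0.1). The ratio of Prdx1 to Srxn1 normalized counts was 83.3, 118 and 105 in Terf1_flox libraries, against 28.8, 11.1 and 19.3 in control libraries, a pair chosen after the values were seen.

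Txnrd1, the cytosolic thioredoxin reductase that spends NADPH to recharge thioredoxin, did not separate the groups. It was at 424.2, 409.5 and 219.6 in Terf1_flox libraries, against 310.5, 489.9 and 363.1 in control libraries. Again Terf1_flox replicate 3 was the lowest of the 6. The log2 fold change was -0.18 ± 0.45 (95% interval -1.20 to 0.84; limma adjusted p = 0.891), 0.13 without Terf1_flox replicate 3 and 0.00 without control replicate 2.

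Pgd, the 6-phosphogluconate dehydrogenase of the oxidative pentose phosphate pathway, which makes NADPH, had the largest fold change of the 3 members whose groups did not overlap. It was at 41.3, 33.9 and 90.1 in Terf1_flox libraries, against 289.4, 321.2 and 277.1 in control libraries. Even the highest Terf1_flox library, replicate 3, was well below the lowest control library. Pgd was 5.78-fold lower, with a log2 fold change of -2.53 ± 0.63 (limma unadjusted p = 0.00321, adjusted p = 0.149; edgeR adjusted p = 0.211; DESeq2 adjusted p = 0.0151; exact permutation p = 0.1).

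These 3 genes differ in transcript GC content, and the comparison carried a trend with GC content over all genes. When all genes were split by GC content into 5 bins of equal size, the bin with the least GC had a median log2 fold change of 0.37 and the bin with the most -0.49. Prdx1, at 43.5% GC, was in the lowest bin; Srxn1, at 53.3%, and Pgd, at 54.2%, were in the fourth, whose median was -0.33. After the log2 values were corrected for GC content and length, an alternative chosen after seeing the data, the log2 fold changes were 0.35 for Prdx1 (limma unadjusted p = 0.0324), -1.22 for Srxn1 (0.0125) and -1.88 for Pgd (0.0144). Adjusted over all genes these limma p were 0.37, 0.303 and 0.309.

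Nqo1 encodes the quinone reductase that is widely read as a marker of NRF2 activity. It was at 893.0, 913.4 and 139.7 in Terf1_flox libraries, against 767.1, 773.9 and 521.0 in control libraries. Terf1_flox replicates 1 and 2 were thus above all control libraries and replicate 3 below them all. The log2 fold change was -0.48 ± 0.70 (95% interval -2.07 to 1.11; limma adjusted p = 0.803) with all libraries and 0.42 without Terf1_flox replicate 3 (limma adjusted p = 0.651). That library is the one with the high proximal tubule sum and the low distal convoluted tubule and intercalated cell sums given above. The part of these cell types in its Nqo1, Nfe2l2 and Txnrd1 values was not tested.

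The glutathione synthesis genes overlapped between the groups. Gclc, the catalytic subunit of glutamate-cysteine ligase, the rate-limiting enzyme of glutathione synthesis, was at 1824, 1589 and 2040 in Terf1_flox libraries, against 1383, 2268 and 1205 in control libraries. Gclm, its modifier subunit, was at 654.8, 604.5 and 451.4, against 797.9, 887.4 and 534.4 in control libraries. The highest and the lowest Gclc value were both of control libraries, whereas for Gclm both Terf1_flox replicates 1 and 2 lay between control values. The log2 fold change was 0.21 ± 0.30 for Gclc (95% interval -0.48 to 0.91; limma adjusted p = 0.796) and -0.36 ± 0.36 for Gclm (95% interval -1.18 to 0.46; limma adjusted p = 0.701). The ratio of Gclc to Gclm counts was 2.79, 2.63 and 4.52 in Terf1_flox libraries, against 1.73, 2.56 and 2.26 in control libraries. The groups did not overlap, but the gap was 0.0718 beside a control SD of 0.417. Ratios were not among the planned tests. The ratio of Nfe2l2 to Keap1, also computed, overlapped, at 249, 12.6 and 16.7 in Terf1_flox libraries, against 16.2, 24.5 and 20.4 in control libraries. Gclm shares 296 exon bases with the antisense gene Gm17494, which was at 198.1 to 322.0 in Terf1_flox and 113.7 to 147.8 in control libraries. It also shares 244 exon bases with Gm6061, a gene on the same strand that had no row. The part of these overlaps in the Gclm values was not tested.

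Hmox1, the inducible haem oxygenase, was close to the limit of detection in the Terf1_flox libraries and in control replicate 3. The Terf1_flox libraries held 0, 0 and 1 whole reads, against 36, 153 and 0 in control libraries. The signal thus came from 2 control libraries, and the third control library was at 0 like the Terf1_flox libraries. The ratio of summed reads, scaled for depth, was 0.00634 (95% interval 0.00016 to 0.0357 by the exact Clopper-Pearson method). That interval covers counting error only and not the spread between control libraries. Hmox1 was tested only because of 2 control libraries, so a low ratio was favoured in advance and only describes the reads. An exact two-sided permutation test over libraries gave p = 0.4. The limma log2 fold change of -3.74 ± 1.95 (adjusted p = 0.428) depends on the pseudocount, at -4.20 with 0.5 and -2.51 with 5, and on single libraries, at -2.18 without control replicate 2 and -5.78 without control replicate 3 (limma adjusted p = 0.679 and 0.36). edgeR gave -7.01 (adjusted p = 0.276) and DESeq2 -7.30 (adjusted p = 0.0521). A count of 0 allows up to 3 reads in a library. Macrophages also express Hmox1: of 16 macrophage and monocyte markers 9 had a row, and they summed to 282 to 595 in Terf1_flox libraries and 482 to 656 in control libraries. The 16 dissociation and immediate early genes summed to 4295 to 4883 in Terf1_flox libraries and 4962 to 5339 in control libraries. Their part in the Hmox1 values was not tested.

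**Figure D2:**
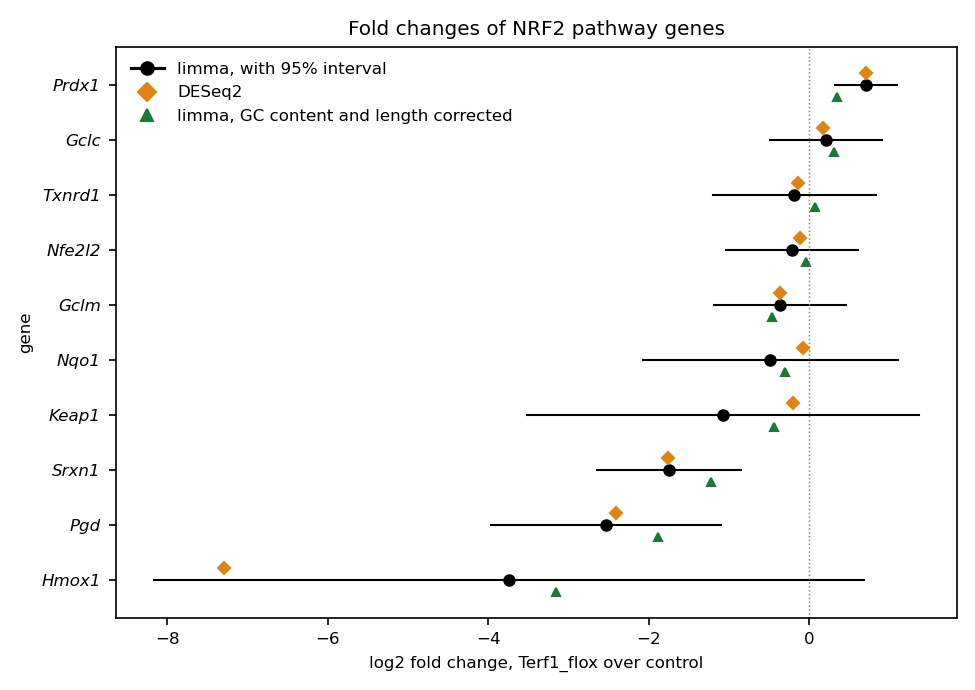
Log2 fold change of Terf1_flox over control (x axis) for each of the 10 genes (y axis), as black points with 95% intervals from limma, orange diamonds from DESeq2 and green triangles from limma after correction for GC content and length. The limma intervals of Prdx1 (0.33 to 1.10), Srxn1 (-2.64 to -0.85) and Pgd (-3.96 to -1.10) exclude 0, before any adjustment over genes.

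To order the members by level, normalized counts were divided by transcript length in kilobases, the median over annotated coding transcripts, which can differ from the transcript expressed. In Terf1_flox libraries Prdx1 led with 36801 ± 814 normalized counts per kilobase (SD, n = 3), followed by Nfe2l2 with 937 ± 384, Gclm with 569 ± 106, Gclc with 531 ± 66 and Nqo1 with 418 ± 284. Txnrd1 (106 ± 34.3), Srxn1 (86.3 ± 14.1), Keap1 (34.4 ± 37.6) and Pgd (24.8 ± 13.8) came next, and Hmox1 (0.215 ± 0.372) was last. Within the Terf1_flox libraries, Prdx1 did not overlap with Nfe2l2, nor Pgd with Hmox1, and all other neighbours in that order overlapped.

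In control libraries the order of the first 5 was the same, with Prdx1 at 22711 ± 4450, Nfe2l2 at 1025 ± 192, Gclm at 738 ± 183, Gclc at 473 ± 166 and Nqo1 at 443 ± 92.8 normalized counts per kilobase. Srxn1 (297 ± 88.9) and Pgd (133 ± 10.3) stood above Txnrd1 (117 ± 27.7) there, whereas both stood below it in Terf1_flox libraries. Keap1 (39.9 ± 6.11) and Hmox1 (37.7 ± 48.9) closed the order. Prdx1 and Nfe2l2, Srxn1 and Pgd, and Txnrd1 and Keap1 did not overlap as neighbours, and the other neighbours did.

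The genes most alike in pattern were sought by Pearson correlation of the log2 values over the 6 libraries, among 9709 named genes with a mean of at least 50. For Nfe2l2 they were Rbmx2 (r = 0.989), Pkp3 (0.988) and Senp2 (0.986), each with Terf1_flox replicate 3 as its lowest library. For Srxn1 they were Alg1 (r = 0.993), Ckb (0.992) and Bap1 (0.991), each with all 3 Terf1_flox libraries below all control libraries. With 6 points that share the library and its depth, and so many genes searched, these r values only describe.

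Beyond the 10 members, 100 further genes of the pathway and of related antioxidant and metabolic roles were listed, of which 92 had a row and 89 were tested. They are called other pathway genes below, though not all are known NRF2 targets. The lists were chosen with earlier results of these data known, so their shares describe the lists and do not test the pathway. More of them were lower than higher in Terf1_flox libraries. limma and edgeR each called 0 of the 89. At an unadjusted p below 0.05, limma found 4 higher (4.49%), against 5.7% of all genes, and 21 lower (23.6%), against 8.43%. edgeR found 25 of the 89 at that level in either direction, against 13.4% of all genes. DESeq2 called 2 higher (2.25%), against 2.21% of all genes, and 11 lower (12.4%), against 3%. Their median log2 fold change was -0.25, beside -0.08 over all genes; corrected for GC content and length it was -0.05, beside 0.08. With that correction 13 were lower and 5 higher at an unadjusted limma p below 0.05, where 5.22% of all genes were lower and 6.67% higher. Without control replicate 3 the count of lower other pathway genes at an unadjusted limma p below 0.05 was 13 in place of 21. Over all 14822 genes tested, the count of lower genes fell too, to 785 in place of 1250. Without any other single library the count of lower other pathway genes was 16 to 22.

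**Figure D3:**
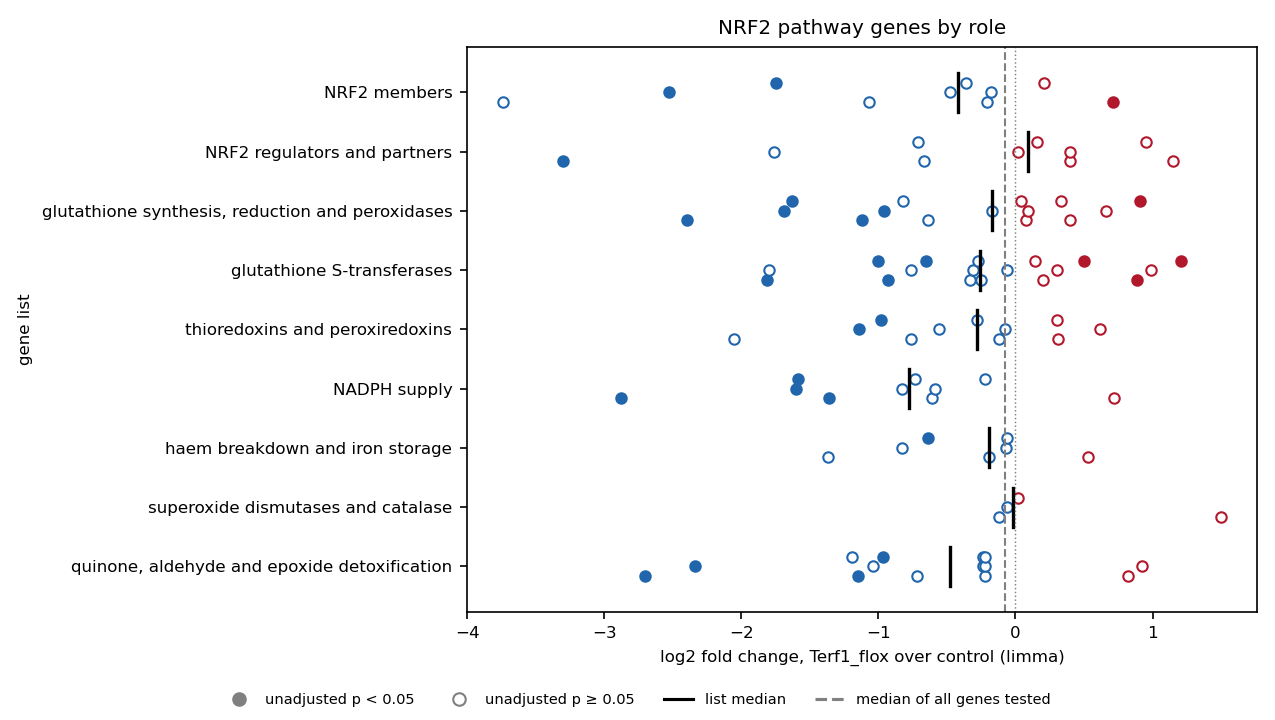
Log2 fold change of Terf1_flox over control from limma (x axis) for each tested gene of the pathway and of related roles, in rows by role (y axis), with the 10 members in the top row. Filled points have an unadjusted p below 0.05, short black lines are list medians and the dashed line is the median of all genes tested (-0.08); the NADPH supply list has the lowest of the list medians, at -0.78.

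The NADPH supply list had the lowest list median, -0.78, with 9 of 10 below 0. It also holds Taldo1, Tkt, Rpe and Rpia, pentose phosphate genes whose enzymes make no NADPH themselves. limma called 0 of the list, and 4 (40%) were lower at an unadjusted p below 0.05, against 8.43% of all genes. DESeq2 called 3 of the list (30%), all lower, against 3%. Of the genes lower by either test, only Idh2 encodes an enzyme that makes NADPH. Idh2, the mitochondrial isocitrate dehydrogenase that makes NADPH, was at 4491, 4352 and 4748 in Terf1_flox libraries, against 11240, 10515 and 13335 in control libraries. The spread within each group was small beside the gap (log2 fold change -1.36 ± 0.17; limma adjusted p = 0.0742; DESeq2 adjusted p = 8.81e-08). Idh2 passed limma's threshold under 3 alternatives (a minimum mean of 50, totals made equal, quantile normalization), and its GC- and length-corrected log2 fold change was -0.77. The mitochondrially encoded share, given above, was higher in every Terf1_flox library, and its part in these values was not tested. Taldo1, the transaldolase of the non-oxidative pentose phosphate branch, was at 646.1, 832.3 and 1060 in Terf1_flox libraries, against 2114, 3081 and 2372 in control libraries (-1.59 ± 0.30; limma adjusted p = 0.0931; DESeq2 adjusted p = 0.000141). Tkt, the transketolase that works beside it, was at 20.7, 192.9 and 165.0, against 343.1, 860.7 and 944.1 in control libraries (-2.88 ± 0.88, limma adjusted p = 0.21, DESeq2 adjusted p = 0.0166). Rpe, the ribulose-phosphate epimerase, had a log2 fold change of -1.60 ± 0.57 with no overlap (limma adjusted p = 0.267, DESeq2 adjusted p = 0.167). G6pdx, the first enzyme of the pathway, overlapped between the groups, at 140 ± 63.2 in Terf1_flox and 202 ± 49.4 in control libraries (SD, n = 3 each). Idh1 and Me1, whose enzymes also make NADPH, overlapped too, with log2 fold changes of -0.83 ± 0.67 and 0.72 ± 0.86. G6pdx, Idh1 and Me1 were named after their values were seen.

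**Figure D4:**
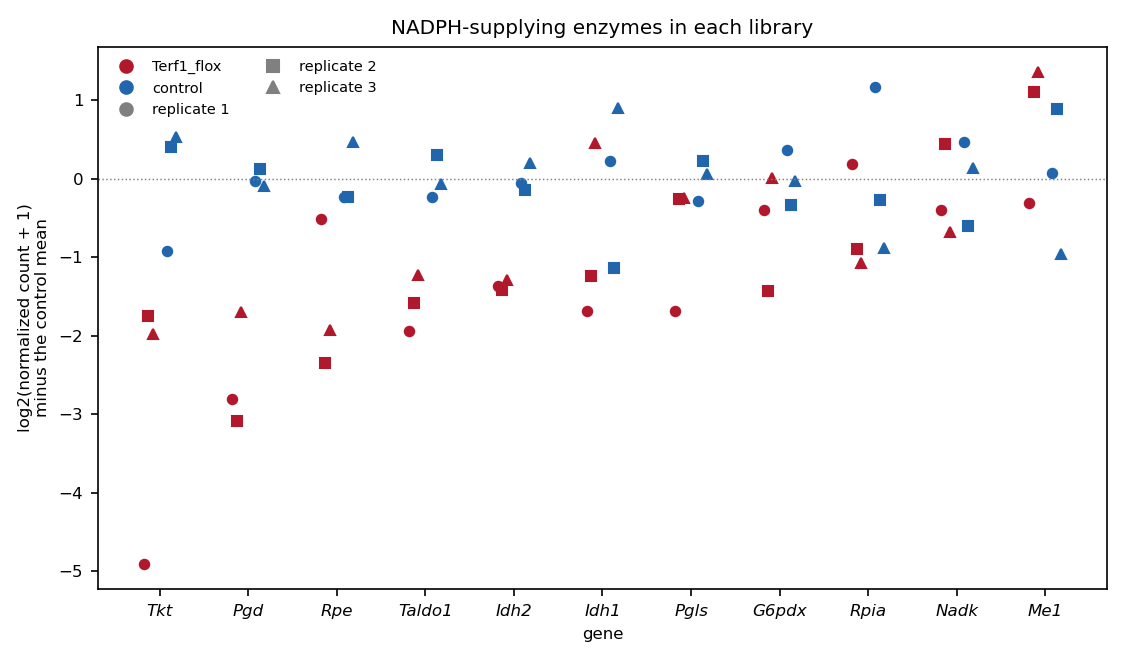
Log2 of the normalized count plus 1, minus the mean of the control libraries (y axis), for Pgd and the 10 genes of the NADPH supply list (x axis, ordered by log2 fold change), with 3 Terf1_flox libraries (red, left) and 3 control libraries (blue, right) and marker shapes for the replicates. Not every gene of that list encodes an enzyme that makes NADPH. The groups separate for Tkt, Pgd, Rpe, Taldo1 and Idh2 and overlap for the other 6.

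Genes of glutathione synthesis, reduction and peroxidases went both ways. Of 15 tested, limma called 0, while 5 (33.3%) were lower and 1 (6.67%) was higher by unadjusted p, against 8.43% and 5.7% of all genes. By DESeq2, 4 (26.7%) were called lower and 1 (6.67%) higher, against 3% and 2.21%. Slc3a2, the heavy chain of the cystine-glutamate exchanger and of other amino acid transporters, was at 419.9, 425.9 and 788.4 in Terf1_flox libraries, against 1624, 1750 and 1682 in control libraries (log2 fold change -1.69 ± 0.34; limma adjusted p = 0.108; DESeq2 adjusted p = 0.00081). Gss, the glutathione synthetase that completes the tripeptide, was at 162.1, 163.2 and 300.6, against 496.1, 611.0 and 792.5 in control libraries (-1.63 ± 0.45, limma adjusted p = 0.186, DESeq2 adjusted p = 0.0286). Ggt1, the surface enzyme that breaks glutathione down outside the cell, was at 443 ± 226 in Terf1_flox and 2358 ± 1287 in control libraries (SD, n = 3 each; -2.40 ± 0.49; limma adjusted p = 0.115). For all 3 genes every Terf1_flox library lay below every control library. Ggt1 is typical of proximal tubule, whose 14 measured markers summed to 5545 to 16332 in Terf1_flox and 3403 to 4994 in control libraries; the part of these cells in the Ggt1 values was not tested. Chac2, which degrades glutathione inside the cell, was the higher gene, at 1575 ± 179 in Terf1_flox and 836 ± 76.4 in control libraries (0.91 ± 0.27; limma adjusted p = 0.199); it was named after its value was seen. Slc7a11, the light chain of the cystine-glutamate exchanger and a known NRF2 target, stayed below the test's minimum, at 10.1 to 13.1 in Terf1_flox and 5.5 to 10.5 in control libraries.

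Among 18 glutathione S-transferases, 3 (16.7%) were higher and 4 (22.2%) lower at an unadjusted limma p below 0.05, against 5.7% and 8.43% of all genes, and 0 were called by limma. DESeq2 called 1 (5.56%), a share near the 5.21% of all genes it called in either direction. That was the microsomal transferase Mgst1. It was at 14830, 17031 and 18250 in Terf1_flox libraries, against 9669, 4846 and 7963 in control libraries. Its groups did not overlap (log2 fold change 1.21 ± 0.25; limma adjusted p = 0.121; DESeq2 adjusted p = 0.00135). The theta and zeta class genes Gstt3 and Gstz1 were lower with no overlap, Gstt3 at 753 ± 188 in Terf1_flox and 1514 ± 414 in control libraries and Gstz1 at 228 ± 150 in Terf1_flox and 675 ± 214 in control libraries (limma adjusted p = 0.247 and 0.266). Genes of this family are similar to each other, and the sources used here do not say how the authors' counting split shared reads.

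Of the 11 other thioredoxin and peroxiredoxin genes, limma called 0, and 2 (18.2%) were lower and 0 higher at an unadjusted p below 0.05, against 8.43% and 5.7% of all genes. Txn2, the mitochondrial thioredoxin, was at 3445, 2035 and 3233 in Terf1_flox libraries, against 6003, 5504 and 7408 in control libraries (log2 fold change -1.14 ± 0.26; limma adjusted p = 0.13; DESeq2 adjusted p = 0.00358). Prdx6, a peroxiredoxin that uses glutathione, was at 1485, 2762 and 1047, against 2869, 2911 and 3952 in control libraries (-0.98 ± 0.36; limma adjusted p = 0.277). Both lay opposite in direction to Prdx1, with no overlap between the groups. Prdx2, the cytosolic peroxiredoxin closest to Prdx1 in function, averaged 6452 ± 677 in Terf1_flox and 7820 ± 203 in control libraries (SD, n = 3 each), with no overlap and a limma adjusted p of 0.494. Prdx5 averaged 29048 ± 1653 in Terf1_flox and 31536 ± 3153 in control libraries, with overlap; both were named after their values were seen.

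The partners and repressors of NRF2 had a median log2 fold change of 0.09, with 0 of 10 called by limma and 1 (10%) lower at an unadjusted p below 0.05, against 8.43% of all genes. That was Mafk, a small MAF partner, at 12.0, 1.0 and 70.8 in Terf1_flox libraries, against 58.1, 182.0 and 165.8 in control libraries, with overlap between the groups. Bach1, a repressor that competes with NRF2 for the same elements, was at 373.1, 382.8 and 249.0 in Terf1_flox libraries, against 94.1, 244.0 and 141.3 in control libraries. Its groups did not overlap, though the nearest libraries were at 249.0 and 244.0 (log2 fold change 1.15 ± 0.54; limma adjusted p = 0.386). Sqstm1, the autophagy receptor p62 that binds KEAP1, had a log2 fold change of -0.71 ± 0.38 and Rbx1, a subunit of the ligase that marks NRF2, of 0.40 ± 0.20 (limma adjusted p = 0.438 and 0.41).

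In haem breakdown and iron storage, limma called 0 of 7 genes, and 1 (14.3%) was lower at an unadjusted p below 0.05, against 8.43% of all genes. That was the ferritin light chain Ftl1, at 14113, 17614 and 18349 in Terf1_flox libraries, against 27495, 23105 and 27239 in control libraries (log2 fold change -0.64 ± 0.16; limma adjusted p = 0.148; DESeq2 adjusted p = 0.0491). The corrected value was -0.23. Hmox2, the constitutive haem oxygenase, was at 209.9, 1444 and 891.6 in Terf1_flox libraries, against 1658, 1525 and 1861 in control libraries, so all Terf1_flox libraries were lower (-1.37 ± 0.63; limma adjusted p = 0.371). The superoxide dismutases Sod1 (-0.12 ± 0.32) and Sod2 (0.02 ± 0.27) and catalase, Cat (-0.06 ± 0.28), overlapped between the groups, with limma adjusted p from 0.898 to 0.986. Sod3, the secreted dismutase, was at 9.8, 79.0 and 122.5 in Terf1_flox libraries, against 44.9, 56.2 and 0.8 in control libraries, and overlapped too.

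Of 14 genes that detoxify quinones, aldehydes and epoxides, 12 were below 0, as were 7831 of all 14822 genes. At an unadjusted limma p below 0.05, 4 (28.6%) were lower, against 8.43% of all genes, and 0 higher, against 5.7%. limma called 0 and DESeq2 2 (14.3%), both lower, against 3%. Aldh2, the mitochondrial aldehyde dehydrogenase, was at 156.6, 479.3 and 43.5 in Terf1_flox libraries, against 907.0, 1114 and 909.4 in control libraries (log2 fold change -2.70 ± 0.77; limma adjusted p = 0.193; DESeq2 adjusted p = 0.0333). Akr1a1, an aldehyde reductase that spends NADPH, was at 2266, 4273 and 3863, against 7387, 6109 and 6192 in control libraries (-0.97 ± 0.27; limma adjusted p = 0.188; DESeq2 adjusted p = 0.0313). Neither gene's groups overlapped.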

How the data were processed

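RNA of sorted kidney epithelial cells was measured in 3 Terf1_flox and 3 control libraries. What the authors deposited is a signal, the count of reads per gene scaled by a size factor per library, with no scaling by gene length. Per the submitters' processing notes, DESeq2 and build GRCm39 were used; the sources used here do not give the aligner, counting tool, annotation or gene filter. Every value (100%) was a whole multiple, within 0.01, of a step per library, so whole reads were recovered by division, and DESeq2 (1.42.0) and edgeR (4.0.16) were run on them.

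The main test was limma (3.58.1, in R 4.3.3), moderated with a trend in mean level and run on log2(normalized count + 1). It covered the 14822 genes whose mean reached 10, with Benjamini-Hochberg adjustment over all of them and a threshold of 0.05. Fold changes are on that log2(value + 1) scale, which understates those of low genes; ± after them is the SE, and after levels the SD. Exact permutation tests were two-sided. The correction for GC content and length subtracted, per library, a spline fit on the median of GENCODE M21 coding transcripts, known for 97.6% of genes. The tests were tried on simulated reads. All 10 members are named; from each other list, up to 4 genes with the smallest p were eligible. The members and lists were chosen with earlier results of these data known. Intervals on reads cover counting error only. Alternatives were other pseudocounts, filters and scalings, leaving out each library, a replicate block, edgeR and DESeq2. Figures used matplotlib 3.10.9.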

Additional observations from a re-analysis of the deposited data

How the results depend on the processing

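limma called 0 genes in the main analysis, 132 when the minimum mean was 50, 45 when totals were made equal and 8 after quantile normalization; DESeq2 called 772. Of the 10 members, DESeq2 called 3 and all other alternatives 0. Of the other pathway genes, 5 were called at a minimum mean of 50 (Ggt1, Idh2, Mgst1, Slc3a2 and Taldo1), 1 under equal totals and 1 after quantile normalization (Idh2 both times), and 13 by DESeq2. In leave-one-out fits, limma called 0 genes throughout and the median of the members ran from -0.69 to -0.04, -0.04 being without Terf1_flox replicate 3.

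Srxn1, Pgd and Prdx1 kept their direction in all 17 alternatives, from -1.93 to -1.22, from -2.95 to -1.88 and from 0.35 to 0.86 (log2), with adjusted p from 0.00261 to 0.367, from 0.0151 to 0.385 and from 0.0252 to 0.372; the lowest is that of DESeq2 each time. Gclc and Gclm kept theirs in all 17, from 0.03 to 0.49 and from -0.58 to -0.2 (log2), so Gclc came close to no difference. Hmox1 was lower in the 16 that could test it, a direction favoured in advance by its selection through control libraries. Leave-one-out fits turned the direction of Nfe2l2 (-0.45 to 0.19), Keap1 (-2.08 to 0.10), Nqo1 (-0.93 to 0.42) and Txnrd1 (-0.34 to 0.13). The libraries that did so were Terf1_flox replicate 1 for Keap1 and Terf1_flox replicate 3 for Nfe2l2, Nqo1 and Txnrd1; Txnrd1 was also at 0.00 without control replicate 2 and at 0.08 with GC content and length corrected. A minimum mean of 50 left Hmox1 untested. The cause was not tested.

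Equal totals moved the median of all genes by -0.17, equal upper quartiles by 0.11, quantile normalization by 0.13 and the GC content and length correction by 0.15; the share of higher genes at an unadjusted p below 0.05 was 25.4%, 50.4%, 47.3% and 56.1%, beside 40.3%. Libraries of the same replicate number did not deviate together (correlations over genes -0.049, 0 and -0.007); with the replicate number as a block, limma called 0 genes, 0 members and 0 other pathway genes, and the median of the members was -0.42.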
